A study of Zea mays with 12 samples.

Results

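Plasma membrane aquaporins are membrane proteins that let water, and in some cases small neutral solutes, pass in and out of plant cells. The 6 maize (Zea mays) genes described here were taken by identifier from the deposited tables of 39514 genes: PIP1-1 (GRMZM2G174807), PIP1-5 (GRMZM2G081843), PIP2-1 (GRMZM2G014914), PIP2-4 (GRMZM2G154628), PIP2-5 (GRMZM2G178693) and PIP2-6 (GRMZM2G047368). A reference gene table gives the same names to all 6, and it names 3 further PIP genes of the files, PIP2-2, PIP2-3 and 1 identifier listed as both PIP1-3 and PIP1-4, so the 6 are not the whole PIP group. The samples came from plants with the Sdw3 mutation, as the series title calls it, and from N18, which the labels list as a cultivar. How the 2 lines are related is not given in the sources used here. RNA of 12 libraries was sequenced at the V7 vegetative stage, with 3 libraries for each genotype in the developing internode between leaves 7 and 8, a stretch of stem, and 3 in the ligular region of leaves 8 and 9, the boundary of sheath and blade. The labels do not say whether the libraries of a group were separate plants.

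PIP proteins assemble as tetramers in which each subunit has its own pore. They fall into a PIP1 and a PIP2 group. In maize, PIP2 proteins reach the plasma membrane and conduct water by themselves, whereas PIP1 proteins depend on association with a PIP2 partner to get there. A growing plant cell enlarges by taking up water while its wall yields, so aquaporins are studied beside wall-loosening proteins such as expansins.

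The levels are FPKM, fragment counts scaled to transcript length and library size, a scale on which different genes can be set beside each other. The authors deposited 1 combined FPKM per gene, genotype and tissue, so the value in each library, the spread between libraries and the read depth are unknown. A gene is called higher or lower where the adjusted p of the authors' test between the genotypes is under 0.05 in the authors' deposited table, and a fold is the ratio of the combined values. In the internode 11.3% of the 21131 genes tested were called, 6.54% as higher in Sdw3. In the ligular region 26.8% of 22721 were called, 13.1% as higher. Known marker genes matched the labelled tissues: the stem and meristem homeobox gene KN-1 was at 180 (Sdw3) and 172 (N18) in the internode and listed at 0 in the ligular region, and lg1, needed to form a ligule, was at 14.9 in the N18 ligular region against 0.125 in the N18 internode. PIP genes of one group resemble each other in sequence, and how reads matching several of them were divided is not given in the sources used here, so levels of close relatives are uncertain. In samples of whole tissue, fewer cells of a type and less RNA per cell cannot be told apart.

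The 6 genes formed 2 tissue patterns, which were the same in both genotypes. PIP2-1 and PIP2-6 were higher in the internode, and PIP1-1, PIP1-5, PIP2-4 and PIP2-5 were higher in the ligular region. The tables of the tissues are taken as normalized separately, so these ratios are a description and were not tested.

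PIP1-1 had an internode FPKM of 429 in Sdw3 and 298 in N18, and a ligular FPKM of 1274 in Sdw3 and 1099 in N18. It was the most abundant of the 6 in the ligular region, where it ranked 39 among all genes in Sdw3 and 47 in N18. The other PIP1 gene, PIP1-5, had an FPKM of 0.0368 and 0.0561 in the internode of Sdw3 and N18 and of 57.6 and 66.9 in the ligular region. Its N18 value was thus 1192-fold higher in the ligular region, a ratio that rests on an internode value near 0.

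Among the PIP2 genes, PIP2-1 had an FPKM of 1329 and 1102 in the internode of Sdw3 and N18, the most abundant of the 6 there, and of 596 and 464 in the ligular region. It ranked 17 among all genes in the Sdw3 internode and 25 in the N18 internode. PIP2-6 had an FPKM of 59.0 and 15.2 in the internode of Sdw3 and N18, and of 1.02 and 0.624 in the ligular region. The ratio of internode to ligular region was 57.7 for PIP2-6 in Sdw3 and 24.4 in N18, while for PIP2-1 it was 2.23 and 2.38.

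PIP2-5, best known from maize roots, had an FPKM of 0.759 and 0.520 in the internode of Sdw3 and N18 and of 41.8 and 35.2 in the ligular region. PIP2-4 had an FPKM of 11.6 and 0.628 in the internode of Sdw3 and N18 and of 34.5 and 17.6 in the ligular region. Its ratio of ligular region to internode was therefore 27.9 in N18 and 2.97 in Sdw3. Among genes with an FPKM of at least 5 in 1 tissue, 13.8% were at least 4-fold higher in the N18 ligular region and 7.49% at least 4-fold higher in the N18 internode. In N18, 3 of the 6 genes passed 4-fold toward the ligular region and 1 toward the internode. In Sdw3 the counts were 2, against 12.1% of all genes, and 1, against 6.1%, since PIP2-4 no longer reached 4-fold.

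**Figure D1:**
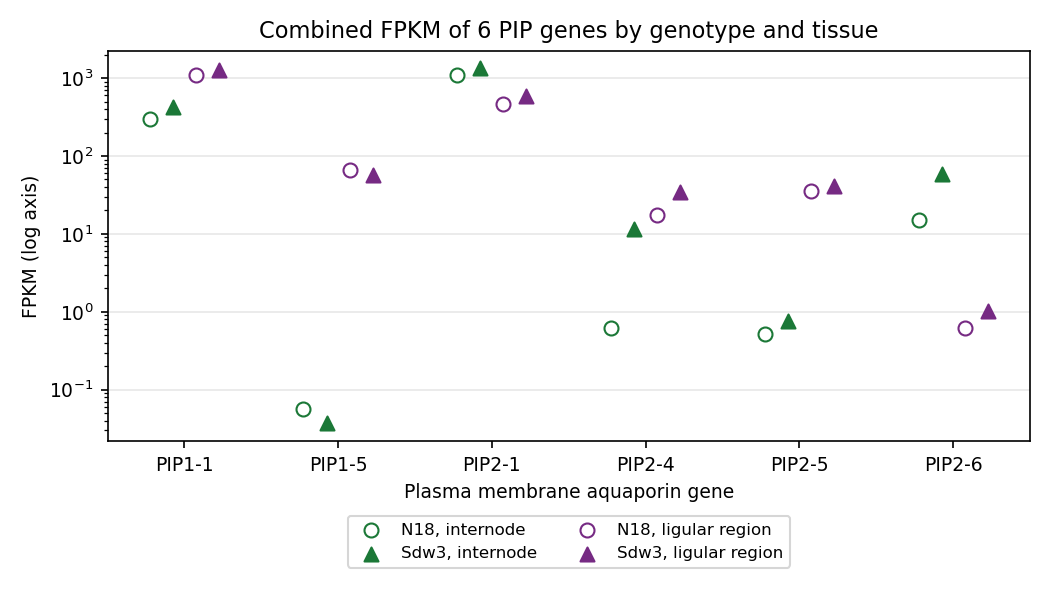
Combined FPKM (log axis) of the 6 PIP genes. Open circles are N18 and filled triangles Sdw3, green in the internode and purple in the ligular region; each point is the authors' combined value, with no error. PIP1-5 spans from 0.0368 to 66.9, and PIP2-6 is the gene that is higher in the internode (59.0 and 15.2) and near 1 in the ligular region.

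The order of levels was the same in both genotypes within a tissue. From highest to lowest it was PIP2-1, PIP1-1, PIP2-6, PIP2-4, PIP2-5 and PIP1-5 in the internode, and PIP1-1, PIP2-1, PIP1-5, PIP2-5, PIP2-4 and PIP2-6 in the ligular region. With no spread between libraries, it cannot be said which neighbours in this order differ, for example PIP2-4 (0.628) and PIP2-5 (0.520) in the N18 internode.

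PIP2-1 and PIP2-6, the pair with higher values in the internode, lie on the same chromosome. On B73 RefGen_v3 the locus of PIP2-1 is on chromosome 7 from 41435005 to 41438812 and that of PIP2-6 from 41553958 to 41555454, 115 kb apart. Both genes that the files place between them are listed at 0 in all 4 groups. PIP1-1 (chromosome 2, 18757670 to 18759694) and PIP2-5 (chromosome 2, 28493203 to 28495467) share a chromosome at a larger distance. PIP1-5 is on chromosome 4 (170004632 to 170006133) and PIP2-4 on chromosome 5 (195239678 to 195242694). None of the 6 loci overlaps another gene of the files. These positions are whole gene loci.

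The first genotype comparison set Sdw3 against N18 in the internode. PIP2-4, PIP2-6 and PIP1-1 were called higher in Sdw3, PIP2-1 was not called, and the authors did not test PIP1-5 and PIP2-5, both under an FPKM of 1 in that tissue. So 3 of the 4 genes tested were called, all 3 higher, against 6.54% of all tested genes. The 6 genes and the lists below were chosen with earlier results of these data known, so such contrasts are descriptions. The median log2 ratio of the 4 was 1.24, against -0.03 over all tested genes. PIP2-4 was at 11.6 in Sdw3 but at 0.628 in N18, near the 0.520 of the untested PIP2-5. It may thus be among the tested genes only because it was higher in Sdw3, which can raise both the share called and the median.

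PIP2-4 rose 18.5-fold, with an approximate 95% interval of 11.9 to 28.7. The intervals here come from the authors' test statistic, scaled to their p-values, and cover only the error that this test models. They are not adjusted for the number of genes, so an interval can leave out 1 for a gene that is not called. At low levels they can also be too narrow. The aquaporin gene TIP2-2, at 1.30 and 0.206 in the internode, had an interval of 2.67 to 14.9. Its p in the authors' test was 0.0643 before adjustment. The interval of PIP2-4, also low in N18, may have the same fault. The log2 ratio of PIP2-4 was 4.21 as deposited and 2.95 after adding 1 to both FPKM values, because its N18 level was low. PIP2-6 rose 3.88-fold (3.28 to 4.59), and PIP1-1 rose 1.44-fold (1.25 to 1.67). The authors' deposited table gives each of these 3 genes an adjusted p of 0.00109, the smallest value for the internode, which 970 genes share.

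PIP2-1, the most abundant of the 6 in this tissue, was at 1.21 times its N18 value (interval 1.02 to 1.43), and the authors' deposited table gives it a p of 0.0265 before adjustment and 0.143 after it. A change of up to 1.43-fold is thus within the interval. The log2 ratio of the untested PIP2-5 was 0.55 and that of PIP1-5 was -0.61; with 1 added to both FPKM values they were 0.21 and -0.03.

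In the ligular region the same question gave 2 genes called higher, PIP2-4 and PIP2-1, out of 5 tested, against 13.1% of all tested genes. PIP1-1, PIP2-5 and PIP1-5 were tested and not called, and PIP2-6 was not tested. The median log2 ratio of the 5 was 0.25, against 0.00 over all tested genes. PIP2-4 rose 1.97-fold (interval 1.65 to 2.34), at an adjusted p that the authors' deposited table gives as 0.000398. PIP2-1 rose 1.29-fold (1.09 to 1.51), where the authors' deposited table has an adjusted p of 0.0083.

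PIP1-1 in the ligular region was at 1.16 times its N18 value (interval 0.979 to 1.37), and the authors' deposited table gives it an adjusted p of 0.201. PIP2-5 was at 1.19 times (1.01 to 1.40) and PIP1-5 at 0.862 times (0.738 to 1.01), with 0.123 and 0.156 as the adjusted p of the authors' deposited table. The PIP2-6 values, 1.02 in Sdw3 and 0.624 in N18, are those of the untested gene. In both tissues the combined Sdw3 value was above the N18 value for 5 of the 6 genes, the exception being PIP1-5. This count takes in genes not called and the low values of untested genes. The share over all genes was not computed, so the count is a description only.

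**Figure D2:**
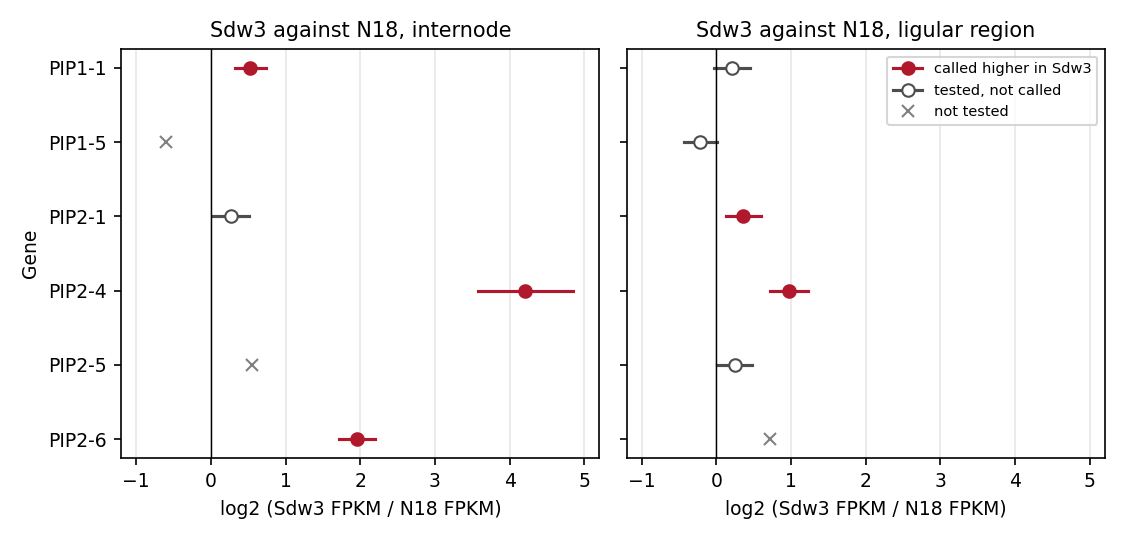
Log2 ratio of the Sdw3 to the N18 FPKM of each PIP gene in the internode (left) and the ligular region (right). Points are the authors' combined values, bars the approximate 95% interval, red marks genes called higher, open points genes not called and crosses genes not tested. PIP2-4 (4.21) and PIP2-6 (1.96) lie farthest from 0 in the internode, and PIP2-4 (0.98) in the ligular region.

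Whether the Sdw3 difference itself depended on the tissue could be tested for the 3 genes that the authors tested in both tables, with an approximate normal test and Benjamini-Hochberg adjustment over 20070 genes, of which 17.8% passed. For PIP2-4 the fold in the internode was 9.39 times that in the ligular region (interval 5.85 to 15.1; adjusted p = 8.23e-18). For PIP1-1 this ratio of folds was 1.24 (0.998 to 1.55; adjusted p = 0.181). For PIP2-1 it was 0.938 (0.742 to 1.19; adjusted p = 0.791). The interval of PIP1-1 reaches to 1.55 and that of PIP2-1 down to 0.742, so differences of that size were not resolved. The deposited p of PIP2-4 was 5e-05 in both tissues, the smallest given. The standard errors were not fitted at that value, so the adjusted p of PIP2-4 is an extrapolation. With unscaled standard errors it was 3.39e-05. The interval of this ratio of folds for PIP2-4 may also be too narrow, as said above of its internode interval. After adding 1 to the FPKM values, the log2 difference of PIP2-4 between tissues was 2.02 rather than 3.23, at an adjusted p of 4.34e-07. PIP2-6, PIP2-5 and PIP1-5 were each untested in 1 tissue, and their difference between tissues was not tested.

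Summed over the 6 genes, the internode FPKM was 1829.5 in Sdw3 and 1416 in N18, a ratio of 1.29, and the ligular FPKM was 2005 and 1684, a ratio of 1.19. These sums follow the abundant members: PIP2-1 made up 72.6% of the Sdw3 and 77.8% of the N18 sum in the internode, and PIP1-1 made up 63.5% and 65.3% in the ligular region. PIP2-4, with the largest fold of the 6 in each tissue among the genes tested, made up 0.634% of the Sdw3 and 0.0444% of the N18 internode sum. PIP2-6 made up 3.23% and 1.07% of these sums.

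The 3 PIP genes named outside the 6 add to this picture. PIP2-2 (GRMZM2G092125) was called higher in the Sdw3 internode at 252 against 122, 2.07-fold (the authors' deposited table gives an adjusted p of 0.00109), and was not called in the ligular region at 294 against 286. PIP2-3 (GRMZM2G081192) was near 0 in the internode, at 0.108 and 0.123, and called higher in the ligular region at 50.4 against 26.2, 1.92-fold, where the authors' deposited table has an adjusted p of 0.000398. The identifier named PIP1-3 and PIP1-4 (GRMZM2G392975) had internode values of 551 and 476 and ligular values of 489.9 and 489.5, and was not called in either. Over the 9 named PIP genes, 4 of 6 tested were called higher in the internode, against 6.54% of all tested genes, and 3 of 8 in the ligular region, against 13.1%. Of these calls 3 and 2 are those of the 6 genes given above, and the limit stated there for PIP2-4 in the internode holds here too. There were 0 called lower in the authors' deposited table, and 0 lower at a p under 0.05 before adjustment.

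The make-up of the summed FPKM of the 9 named PIP genes differed more between tissues than between genotypes in these combined values. Only 18962 of 39514 identifiers were matched to a name, so PIP genes without a name may be missing from the sums and could shift the shares. Over the 9 genes, PIP2 genes held 62.7% (Sdw3) and 61.6% (N18) of the summed internode FPKM, but 35.8% and 33.4% of the ligular sum. The ratio of PIP2 to PIP1 was 1.68 in Sdw3 and 1.60 in N18 for the internode, while the ligular ratio was 0.559 and 0.501. These shares have no replicate error and were not tested.

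**Figure D3:**
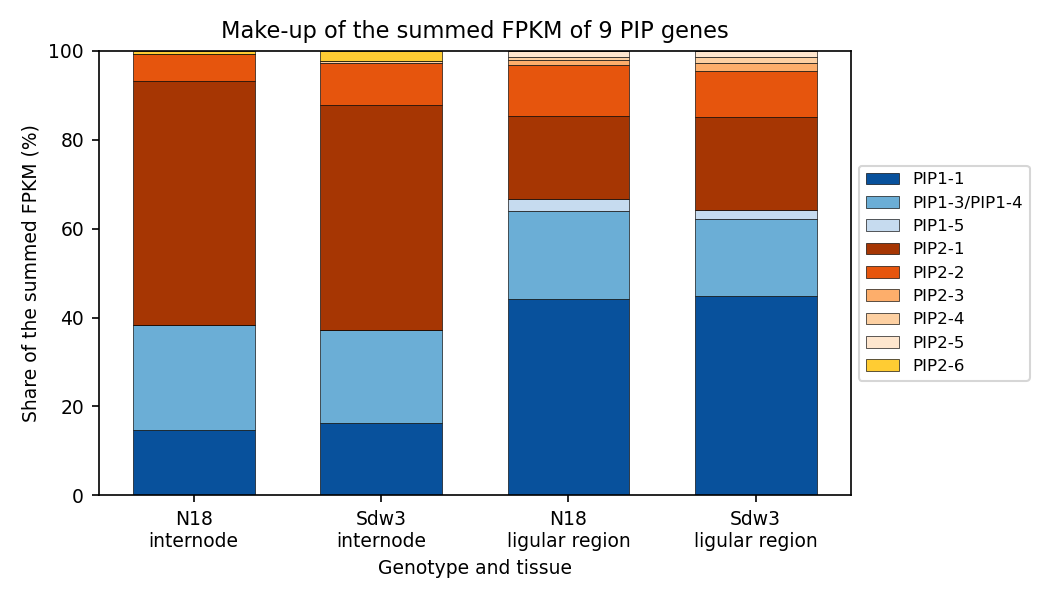
Share (%) of each gene in the summed FPKM of the 9 PIP genes matched by name, by genotype and tissue. Blue shades are PIP1 genes and orange and yellow shades PIP2 genes; bars are combined values with no error. PIP1 genes hold 38.4% (N18) and 37.3% (Sdw3) of the internode bars, and 66.6% and 64.2% of the ligular bars.

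Other aquaporin families were compared from a list matched by gene name. Beside the 9 PIP genes it held 10 TIP genes of the vacuolar membrane, 5 NIP genes, a family that includes silicon and boron channels, and 3 SIP genes of internal membranes. Of these 18 TIP, NIP and SIP genes, 2 of 13 tested were called higher in the internode and 1 lower, against 6.54% and 4.76% of all tested genes, and their median log2 ratio was 0.04. In the ligular region 5 of 14 were called higher and 2 lower, against 13.1% and 13.7%, with a median of 0.06. With the PIP genes included, 6 of 19 were higher and 1 lower in the internode. Of these 6, 4 were PIP genes, among them PIP2-4 with the limit given above. In the ligular region 8 of 22 were higher and 2 lower, 3 of the 8 being PIP genes.

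Among TIP genes, TIP2-1 was called higher in both tissues, 1.77-fold in the internode, where it was at 10.9 against 6.14, and 1.84-fold in the ligular region. TIP4-1 was called higher in the ligular region at 216 against 117, as were TIP4-2 at 22.8 against 6.64 and TIP1-2 at 3.36 against 1.36. TIP4-4 was called lower in both tissues, at 35.6 against 49.7 and at 18.3 against 27.8.

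The authors' deposited table gives TIP4-4 an adjusted p of 0.0051 for the internode and 0.000754 for the ligular region, and TIP1-2 one of 0.00473. For TIP2-1, TIP4-1, TIP4-2, NIP2-2 and NIP3-1 it was the smallest value of each table in which they were called. NIP3-1, which encodes a boron channel in maize, was called higher in the Sdw3 internode (102 against 70.3) and lower in the Sdw3 ligular region (21.2 against 33.9). NIP2-2 was called higher in the ligular region (42.4 against 27.9). None of the 3 SIP genes was called in either tissue, and the authors' deposited table has 0 of the 3 at a p under 0.05 before adjustment.

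**Figure D4:**
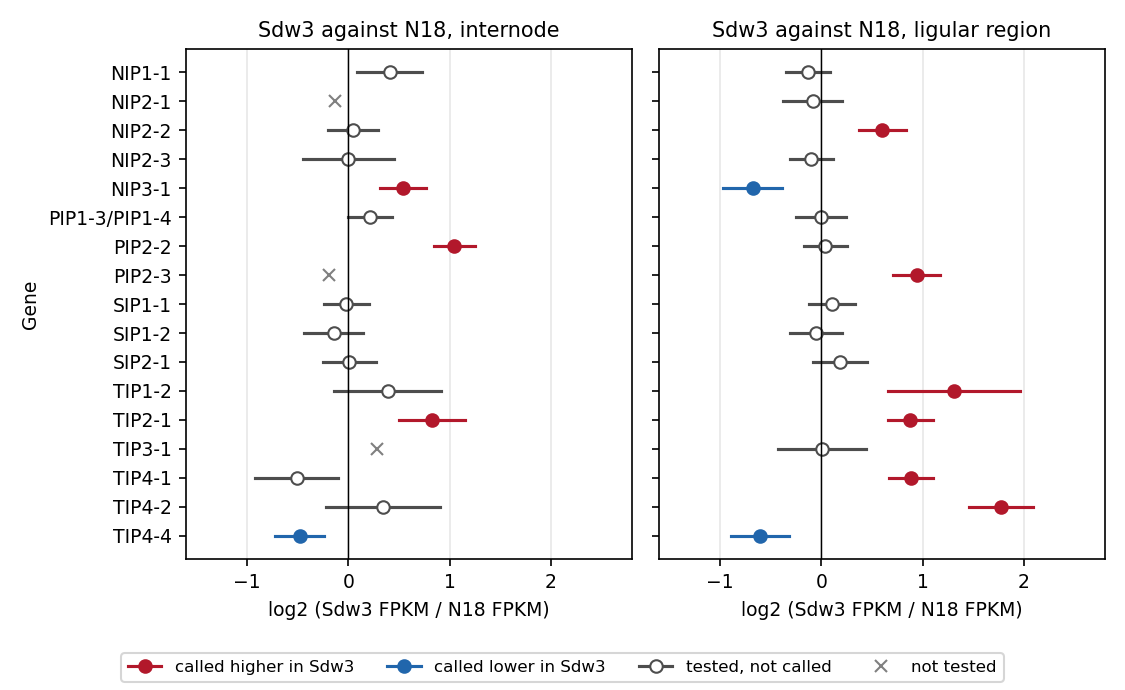
Log2 ratio of the Sdw3 to the N18 FPKM of 17 further aquaporin genes that reached an FPKM of 2 in at least 1 group, in the internode (left) and the ligular region (right). Red and blue points are called higher and lower in Sdw3, open points were not called, crosses were not tested, and bars are the approximate 95% interval. TIP4-4 is blue in both tissues, and NIP3-1 is red in the internode and blue in the ligular region.

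Genes of cell expansion were set beside the PIP genes from a list of 21 expansins, xyloglucan-modifying enzymes and plasma membrane proton pumps matched by name. In the internode 2 of 12 tested were called higher and 1 lower, against 6.54% and 4.76% of all tested genes. All 3 encode alpha-expansins, proteins that loosen the wall: EXPA5 was at 14.5 against 7.57, expa1 at 16.9 against 11.6 and expa2, the lower one, at 21.1 against 31.3, and the authors' deposited table gives each an adjusted p of 0.00109. The median log2 ratio of the tested list was 0.20, against -0.03 over all genes tested.

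In the ligular region 4 of 16 were called higher, all of them beta-expansin genes, and 3 lower, against 13.1% and 13.7% of all tested genes; the share of lower genes is near that of all genes. The higher ones were expB3 (6.19 against 1.36), expB5 (106 against 69.4), expB7 (265 against 170) and expB8 (467 against 323), and the lower ones xth1, a xyloglucan endotransglucosylase gene (141 against 320), expA3 (244 against 314) and expA4 (26.3 against 35.7). The list's median was 0.00, the same as over all genes tested. The authors' deposited table gives an adjusted p of 0.00314 to expA3, 0.00692 to expA4 and 0.000398 to the other 5. The proton pump genes mha2 and mha4 were not called in either tissue, at 77.4 against 78.3 and 43.3 against 39.5 in the internode; mha2 shares its locus with another gene of the files, so its values are uncertain.

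Likeness of pattern was measured as the Euclidean distance between the 4 values of log2(FPKM + 1) of a gene, centred on their mean, over 1753 named genes tested in both tissues with an FPKM of at least 5 in some group. The nearest to PIP2-4 was opr5, at a distance of 0.62, with an FPKM of 14.1 and 2.13 in the internode of Sdw3 and N18 and ligular values of 53.8 and 37.9. AGA1 came next at 1.10. The nearest to PIP2-6 were gst41 (0.91) and bx2 (1.29), but neither was close. In Sdw3 and N18, gst41 was at 1060 and 695 in the internode and at 53.7 and 48.5 in the ligular region. For bx2 these values were 307 and 240, and 29.5 and 13.0. Both differed by a smaller fold between the genotypes in the internode than PIP2-6, at 59.0 and 15.2. PIP2-6 was itself untested in the ligular region, so genes near 0 in 1 tissue, as it is, are partly missing from the genes searched. PIP1-5 and PIP2-5, untested in the internode, have the same limit.

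PIP2-1 was nearest to MYR1 (0.13) and elfa3 (0.14), and PIP1-1 to HB84 (0.14) and MYB30 (0.15). PIP1-5 was nearest to SAG (0.22) and aba1 (0.31), and PIP2-5 to nuc (0.28) and CP22 (0.31). Each distance rests on 4 combined values and is a description.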

How the data were processed

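For the 12 maize libraries the submitters' processing notes name Cufflinks, TopHat2 2.1.0, bcl2fastq and CASAVA 1.8, with the build B73 RefGen_v3; normalization, Cufflinks version and gene annotation: not given in the sources used here. The authors deposited 1 FPKM per gene, genotype and tissue, the unit being taken from the table layout and these notes. The score is the authors' test statistic, per the file headers. The p-values and q-values are also the authors', per the file headers; Benjamini-Hochberg adjustment of the p-values gave the q-values within 5.26e-07.

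Tests planned on single libraries (limma, the replicate block, leave-one-out) could not be run on combined values, so the authors' test was used. Log2 ratios were recomputed from the FPKM values with no pseudocount. The standard error of a log2 ratio was its size over that of the score, divided by 1.74 (internode) or 1.70 (ligular region). This scale was the median of normal quantile of p over score, over genes with intermediate p, above the smallest deposited value. A normal test with it gave the authors' call for 99.2% and 98.4% of genes; the factors were fitted to those p-values, so this is no independent check. The difference between tissues used these errors; the simulation that tested its code drew on the same errors, so it does not show that they are right.

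Gene names came from a RefSeq table of a later assembly (Zm-B73-REFERENCE-NAM-5.0), which matched 18962 of 39514 identifiers, of which 517 had more than 1 entry and stayed without a name. Named were the 6 genes, every aquaporin called in a tissue, up to 4 called cell expansion genes per direction and tissue, and the 2 genes nearest to each of the 6; the other PIP, NIP, SIP and proton pump genes, KN-1 and lg1 were chosen after their values were seen. The members and lists were chosen with earlier results of these data known. Alternatives were other thresholds, adjustments, pseudocounts, scalings and standard errors. Scripts ran under Python 3.11.15 with scipy 1.17.1, pandas 2.3.3, numpy 2.4.6 and matplotlib 3.10.9.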

Additional observations from a re-analysis of the deposited data

Results flagged for a closer look

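The Sdw3 to N18 log2 ratio differed between the internode and the ligular region for 7 of 17 aquaporin genes compared, at an adjusted p under 0.05 in the approximate normal test, against 17.8% of all genes. As internode minus ligular region, the difference was 3.23 for PIP2-4, 1.01 for PIP2-2, 1.22 for NIP3-1, 0.54 for NIP1-1, -0.56 for NIP2-2, -1.40 for TIP4-1 and -1.43 for TIP4-2. The adjusted p was 8.23e-18 for PIP2-4, 1.78e-09 for PIP2-2, 4.71e-09 for NIP3-1, 1.69e-07 for TIP4-1, 0.000245 for TIP4-2, 0.00962 for NIP2-2 and 0.0418 for NIP1-1. With unscaled standard errors NIP1-1, NIP2-2 and TIP4-2 no longer passed (adjusted p of 0.696, 0.495 and 0.202), and with a pseudocount of 1 NIP1-1 did not (0.0855). PIP2-4 passed in both settings, at an adjusted p of 3.39e-05 and 4.34e-07. Its difference fell from 3.23 to 2.02 with the pseudocount, as its N18 internode level was low. NIP3-1 was the gene among the 7 called in opposite directions, higher in the Sdw3 internode and lower in the Sdw3 ligular region.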

How the results depend on the processing

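The counts of called genes (6 PIP genes, aquaporin family and cell expansion list in each tissue) held at an adjusted p under 0.01. They were also the same after adjustment over tested genes with an FPKM of at least 1. Leaving out mha2, the only listed gene that shares a locus, could not change the counts, because it was called in neither tissue. A least change of 1.5-fold lowered them, from 3 to 2 (PIP genes, internode), 2 to 1 (PIP genes, ligular region), 7 to 4 and 10 to 9 (family), and 3 to 1 and 7 to 4 (cell expansion). Bonferroni adjustment was not used, since the smallest deposited p, 5e-05, times the genes tested is above 1 in both tissues (1.06 and 1.14). The tissue difference passed for PIP2-4 and not for PIP1-1 or PIP2-1 under all 4 alternatives run. Adding the same pseudocount to both values cannot change the sign of a log2 ratio, so the signs are no check of that setting. The scalings moved the log2 ratios little. The smallest called ratio of the 6 genes, PIP2-1 in the ligular region, was 0.36 as deposited and 0.35 or 0.37 after scaling. No paired analysis was possible because the files hold 1 combined value per genotype and tissue; for the same reason no library could be left out, and depth and spread between libraries stay unknown.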

Other observations

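Several other aquaporin genes were far apart between the tissues in both genotypes, as values with no test. NIP1-1 had an FPKM of 10.4 (Sdw3) and 7.87 (N18) in the internode and of 255 and 279 in the ligular region. NIP2-3 was at 1.93 in both genotypes in the internode and at 75.9 and 81.2 in the ligular region. TIP4-1 was at 3.92 and 5.60 in the internode, with ligular values of 216 and 117. SIP1-1 differed little, with internode values of 51.1 and 51.8 and ligular values of 57.6 and 53.5. PIP2-3 resembled PIP1-5 and PIP2-5 in being near 0 in the internode, at 0.108 and 0.123, and above 25 in the ligular region.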
